A study of Arabidopsis thaliana with 28 samples.

Results

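The subject is a small group of DNA transposon families of Arabidopsis thaliana: HARBINGER and ATIS112A of the Harbinger superfamily, ATHPOGON2 of the Pogo superfamily, and ATDNA12T3A and RP1_AT, which the deposited table places in the DNA class without a superfamily of their own. They were chosen by the superfamily field of the family name and, for the last pair, by name, and they are 5 of the 83 named families that the table lists. The libraries came from caa39, a mutant affecting topoisomerase VI, and from wild-type Col-0, with 3 RNA libraries each, which the series design calls biological replicates. Both groups were aerial parts of seedlings grown for 6 days under the same conditions, with no treatment. The caa39 group is a single mutant line in the labels, and the sources used here do not give its zygosity. The table holds transposable element families and no genes, so the genotypes were not checked on a targeted gene or the tissue on its markers. Chromatin immunoprecipitation, input and bisulfite libraries of the series were not analysed here.

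DNA transposons of the cut-and-paste kind move by a transposase that binds short terminal inverted repeats, excises the element and inserts it elsewhere. Harbinger elements typically code for a transposase and a separate DNA-binding protein, while Pogo elements, named after an element of Drosophila, belong with Tc1/mariner elements, which insert at TA dinucleotides. In plants most copies of such families are kept silent by DNA methylation and histone H3K9 methylation, and many are shortened copies that no longer code for a transposase. Topoisomerase VI passes one DNA double strand through another and is known in plants for its part in endoreduplication. In ATHPOGON2 the letter N marks a non-autonomous family by the usual naming of plant repeats. No role is given here for ATDNA12T3A and RP1_AT beyond their class.

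Values are normalised read counts of whole families, that is, reads summed over copies dispersed in the genome and divided by a size factor of the library. Library values were solved from the deposited group means in whole reads, and the letters a, b and c order the libraries of a genotype by size factor; they are not replicate numbers. The 5 families held 600, 599 and 416 reads in caa39 libraries a, b and c, against 474, 395 and 431 reads in wild-type libraries a, b and c. This was 2.65%, 2.96% and 2.85% of the reads of all named families in caa39 and 2.50%, 2.14% and 2.64% in the wild type. One read was worth 0.732 to 1.09 normalised counts in caa39 and 1.06 to 1.22 in the wild type. In whole aerial parts, a change in the number of expressing cells and a change in RNA per cell cannot be told apart.

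Between caa39 and the wild type the 5 families went both ways. HARBINGER and ATDNA12T3A rose in caa39, and ATIS112A, ATHPOGON2 and RP1_AT fell, all with an adjusted p below 0.05 as listed in the authors' deposited table. That table lists only families past this threshold, so 100.0% of its named families are called, 48.2% as higher and 51.8% as lower in caa39, and the count of 5 called members says nothing about the members. In each of the 5 the caa39 libraries lay on one side of all wild-type libraries, as they did in 98.8% of the named families. In the authors' deposited table the smallest change was the fall of ATIS112A to 0.696 of the wild-type level. The largest rise was 27.8-fold for ATDNA12T3A, and the largest fall was to 0.0412 for RP1_AT.

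**Figure D1:**
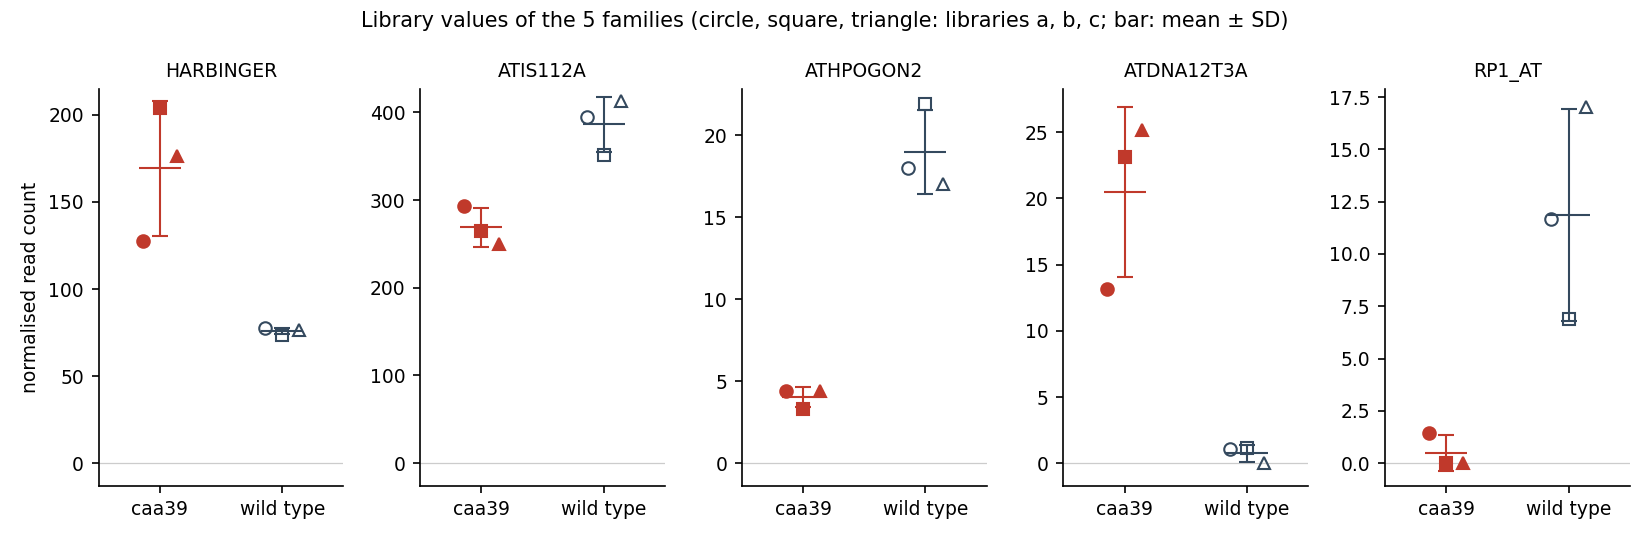
Normalised read count (y axis, each panel with its own scale) of the 5 families in 3 caa39 libraries (filled, left) and 3 wild-type libraries (open, right); horizontal bars are means and whiskers SDs. The 3 caa39 points lie above all wild-type points for HARBINGER and ATDNA12T3A and below them for ATIS112A, ATHPOGON2 and RP1_AT.

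HARBINGER, the family that shares its name with the superfamily, rose 2.23-fold in caa39 (the authors' deposited table, adjusted p = 1.09e-06). It had 127, 204 and 176 normalised counts in caa39 libraries a, b and c, against 77.4, 73.7 and 76.6 in wild-type libraries a, b and c. The wild-type libraries were nearly level, whereas the caa39 libraries spread over 1.60-fold, with library a the lowest. The means were 169 ± 38.9 in caa39 and 75.9 ± 1.92 in the wild type (SD, n = 3 each). Counting error alone would give SDs of 12.3 and 9.31, so the caa39 spread was wider than read counting and the wild-type spread narrower. Even caa39 library a stood 1.65-fold above the highest wild-type library. On log2 values with a pseudocount of 0.5, limma fitted over the 83 named families gave a log2 fold change of 1.13 ± 0.19 (SE; Benjamini-Hochberg adjusted p = 0.00207).

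ATIS112A, the other Harbinger family, had the most reads of the 5 and fell to 0.696 of the wild-type level in caa39 (the authors' deposited table, adjusted p = 0.000575). It had 293, 265 and 249 normalised counts in caa39 libraries a, b and c, against 394, 351 and 413 in the wild-type libraries. With the chosen library constants both groups were tight, with means of 269 ± 22.0 in caa39 and 386 ± 31.7 in the wild type (SD, n = 3 each), against counting SDs of 15.3 and 21.0. The gap between the genotypes was narrow: the highest caa39 library stood at 0.834 of the lowest wild-type library. In limma the log2 fold change was −0.52 ± 0.11 (SE; adjusted p = 0.00517), and limma called 97.6% of the named families. With the tightest other set of library constants found to solve the caa39 means, the caa39 libraries had 310, 233 and 265 normalised counts. Their SD was then 38.8, and limma gave −0.53 ± 0.19 (SE, adjusted p = 0.0281).

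The fall of ATIS112A depended on how libraries were scaled. The other scale tried, the sum of listed reads, holds only entries past the authors' threshold. It includes an entry labelled Unassigned, with 28.3% of the listed reads, which itself stood at 0.812 of the wild-type level in caa39. By the size factors this sum thus differs with genotype, which is no independent check of either scale. Which scale is right was not tested. When each library was scaled to the sum of its listed reads, this raised the log2 fold changes of the named families by a median of 0.31, since the totals after division by the size factors were lower in caa39, by −0.31 on the log2 scale. On that scale ATIS112A had 127, 115 and 110 reads per 10000 listed reads in caa39 libraries a, b and c, against 139, 120 and 148 in the wild-type libraries. The libraries then overlapped, and limma gave a log2 fold change of −0.21 ± 0.12 (SE; adjusted p = 0.136), where it called 83.1% of the named families. The median log2 fold change of the named families in limma was −0.35 before this scaling and −0.04 after it, beside −0.52 and −0.21 for ATIS112A. HARBINGER, ATDNA12T3A, ATHPOGON2 and RP1_AT kept their direction and their call on this scale.

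Dividing a library by a size factor leaves the ratio of the 2 Harbinger families inside it unchanged. The reads of each caa39 library still rest on the library constants chosen when they were solved. HARBINGER had 0.435, 0.772 and 0.706 reads per read of ATIS112A in caa39 libraries a, b and c, against 0.196, 0.210 and 0.185 in the wild-type libraries. All caa39 libraries lay above all wild-type libraries, and with the chosen constants library a was the lowest of the caa39 group. The means were 0.638 ± 0.179 in caa39 and 0.197 ± 0.0123 in the wild type (SD, n = 3 each). The means of the log2 ratios differed by 1.65, which is 3.14-fold between geometric means. The tightest other set of constants found to solve the caa39 means gave other ratios in the single libraries. With that set HARBINGER had 496, 335 and 247 reads in caa39, and ATIS112A 856, 628 and 320. The difference of the log2 ratios was then 1.66. An exact permutation test, two-sided, gave p = 0.1, the smallest that 3 against 3 libraries allow. This ratio was taken after one family was known to rise and the other to fall, so it describes their divergence without library scaling and is no further evidence of it.

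**Figure D2:**
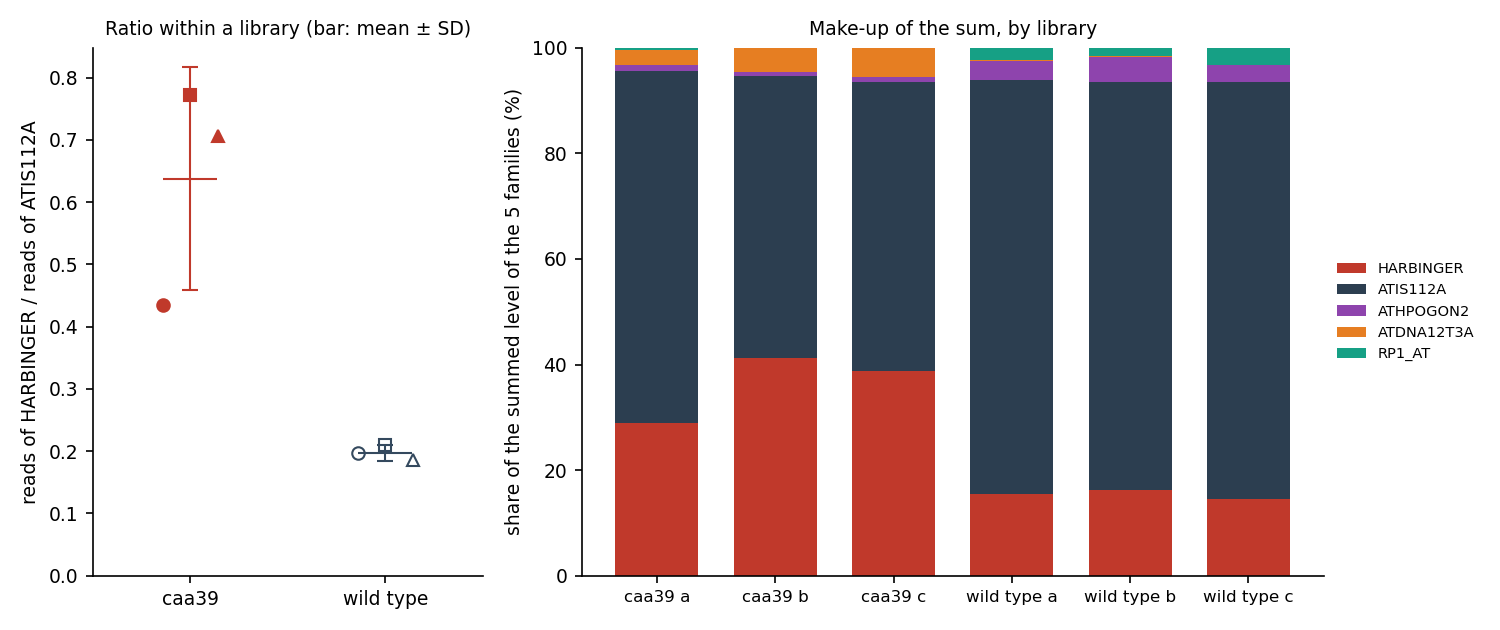
Library values in this figure are those of the chosen library constants. Left, reads of HARBINGER over reads of ATIS112A within each library, caa39 left and wild type right, with mean and SD. The caa39 ratios run from 0.435 to 0.772 and the wild-type ratios from 0.185 to 0.210. Right, share of the summed level of the 5 families in percent, 1 bar a library; ATIS112A is the largest share in every library, and HARBINGER holds 29.0% to 41.2% in caa39 and 14.6% to 16.2% in the wild type.

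Because the pair went opposite ways, its sum hid both changes. The 5 families together had 439, 495 and 455 normalised counts in caa39 libraries a, b and c, against 502, 455 and 524 in the wild-type libraries. These ranges overlapped, and the means of 463 ± 28.9 in caa39 and 494 ± 35.2 in the wild type (SD, n = 3 each) differed by about the spread between libraries. What changed was the make-up of the sum: ATIS112A made up 58.1% of it in caa39 and 78.2% in the wild type, and HARBINGER 36.5% in caa39 and 15.4% in the wild type. Without HARBINGER the sum stood at 0.704 of the wild type, and without ATIS112A at 1.81 times the wild type. On the scale of listed reads the sum of all 5 was 1.16 times the wild type, with libraries that did not overlap. Without ATDNA12T3A it was 1.11 times and without HARBINGER 0.870 times the wild type, and the libraries overlapped in both cases. Leaving out ATIS112A, ATHPOGON2 or RP1_AT kept the libraries apart.

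ATHPOGON2, the one listed Pogo family, fell to 0.212 of the wild-type level in caa39 (the authors' deposited table, adjusted p = 0.00338). It had 4.39, 3.31 and 4.38 normalised counts in caa39 libraries a, b and c, from 6, 4 and 4 reads, against 18.0, 21.9 and 17.0 in the wild-type libraries, from 17, 19 and 14 reads. Both groups were even, with the highest caa39 library at 0.258 of the lowest wild-type library. Over pooled reads, 14 in caa39 and 50 in the wild type, the ratio was 0.211 with an exact 95% counting interval of 0.108 to 0.388. In limma the log2 fold change was −2.11 ± 0.16 (SE; adjusted p = 0.000162). The SDs of 0.622 in caa39 and 2.57 in the wild type (n = 3 each) were below the counting SDs of 1.89 and 4.65. The limma error therefore understates the counting error of so few reads, and the counting interval is the wider guide.

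ATDNA12T3A was close to absent in the wild type and rose 27.8-fold in caa39 (the authors' deposited table, adjusted p = 2.08e-06). This is the highest fold listed, but ATHILA6B follows at 26.3 in the authors' deposited table, and the listed folds of 4 families with no wild-type reads rest on a placeholder mean of 1. It had 13.2, 23.2 and 25.2 normalised counts in caa39 libraries a, b and c, from 18, 28 and 23 reads, against 1.06, 1.15 and 0 in the wild-type libraries, from 1, 1 and 0 reads. Every caa39 library was far above every wild-type library, and the lowest caa39 library stood 11.4-fold above the highest wild-type library. The fold itself rests on 2 wild-type reads: the exact 95% counting interval of the pooled ratio ran from 6.94 to 219. Leaving out wild-type library c, which had no read, gave a ratio of 18.5, and leaving out wild-type library b gave 38.7. In limma the log2 fold change was 4.22 ± 0.54 (SE; adjusted p = 0.000932), a value that the pseudocount of 0.5 holds down.

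RP1_AT fell to 0.0412 of the wild-type level in caa39 (the authors' deposited table, adjusted p = 0.0263), the largest listed fall of the 83 named families. ATREP6 follows at 0.0535 in the authors' deposited table, inside the counting interval of RP1_AT given below, so this rank rests on few reads. It had 1.46, 0 and 0 normalised counts in caa39 libraries a, b and c, from 2, 0 and 0 reads, against 11.7, 6.91 and 17.0 in the wild-type libraries, from 11, 6 and 14 reads. The wild-type libraries spread over 2.46-fold, and with the chosen library constants a single caa39 library held all of the caa39 reads. With the tightest other set of constants found to solve the caa39 means, the reads were 2, 2 and 0, so the values that leave out a caa39 library rest on this choice. The pooled ratio of 0.0487 had an exact 95% counting interval of 0.00565 to 0.191, which also rests on the chosen constants. The wild-type SD of 5.06 (n = 3) was above the counting SD of 3.70, so this interval leaves out part of the spread between libraries. Without caa39 library a the group had no read. A floor of 3 reads over caa39 libraries b and c stood 8.33-fold below the pooled wild-type level, with the wild-type reads taken as exact. This leaves out the one caa39 library with reads, so it is no bound for the full group, whose interval ends at 0.191. Without caa39 library b or c the ratio of mean normalised counts was 0.0617, against 0.0412 with all libraries. In limma the log2 fold change was −3.88 ± 0.64 (SE; adjusted p = 0.00207).

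**Figure D3:**
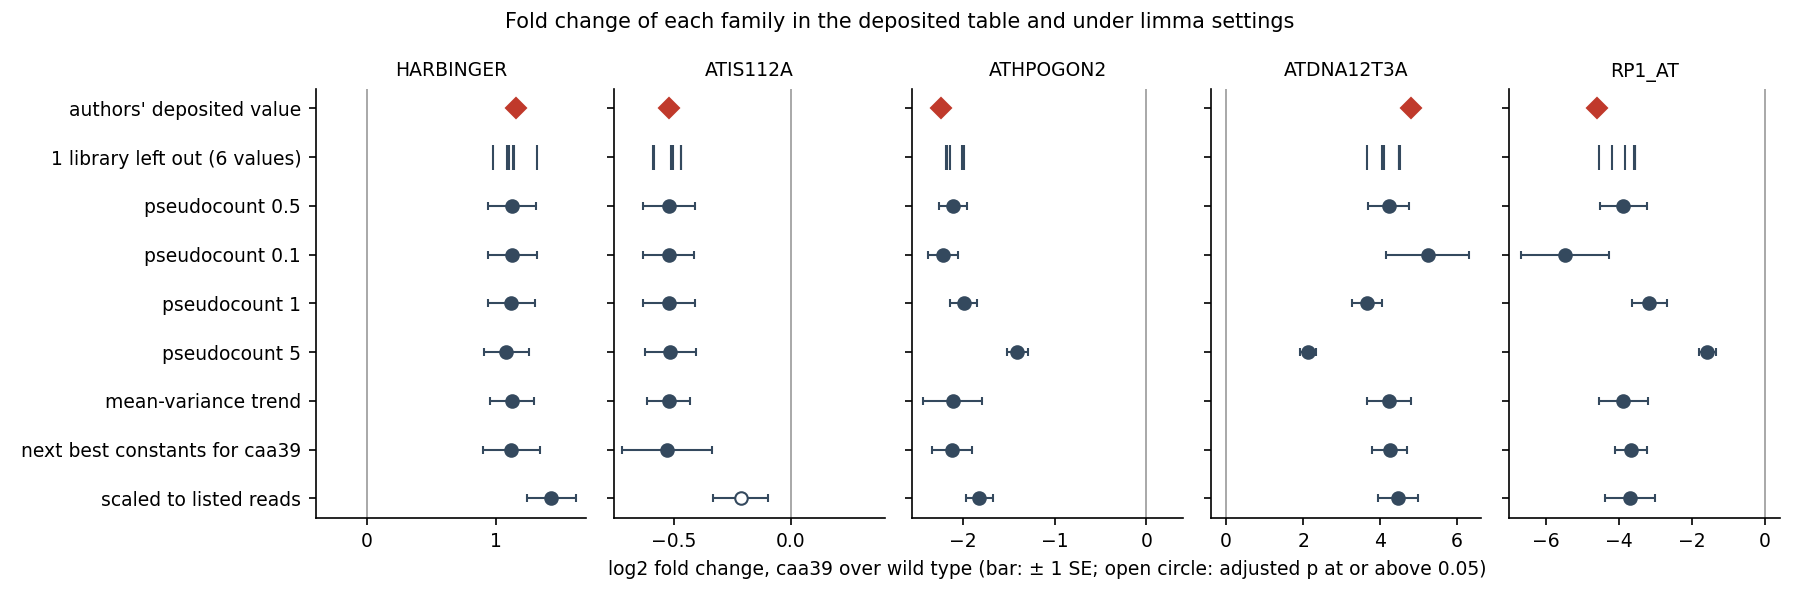
Log2 fold change of each family, caa39 over wild type (x axis, own scale in each panel): the authors' deposited value (diamond), limma with each of 6 libraries left out (ticks), and limma under other settings (circles with ± 1 SE; open where the adjusted p is at or above 0.05). All values of a family stay on one side of 0; the open circle is ATIS112A scaled to listed reads, at −0.21.

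The libraries were not alike across the families. Among the caa39 libraries, library a was the nearest to the wild-type mean in all 5: the lowest for HARBINGER and ATDNA12T3A and the highest for ATIS112A, ATHPOGON2 and RP1_AT. For ATHPOGON2 it led library c by a fraction of a count, and over the 83 named families library a was nearest in 38.6%. With the tightest of the other sets of library constants found to solve the deposited caa39 means, no single library was nearest in all 5, so this order rests on the choice of constants. The part of library a in the results was not tested. In limma without library a the log2 fold changes were 1.32 for HARBINGER, −0.58 for ATIS112A, −2.17 for ATHPOGON2, 4.50 for ATDNA12T3A and −4.54 for RP1_AT. Each kept its direction and its call (adjusted p of 0.000773 to 0.00806). With all libraries limma called 97.6% of the named families, so these kept calls say little about the members.

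By read level the families fell into a well-read pair and a sparse group of 3. Among the 83 named families, ordered by mean normalised count over all libraries, ATIS112A ranked 20 with 328, HARBINGER 31 with 122.6, ATHPOGON2 69 with 11.5, ATDNA12T3A 73 with 10.6 and RP1_AT 77 with 6.18. The table gives no element lengths, so this order is of reads and not of transcripts. In caa39 the order of mean normalised counts was ATIS112A, HARBINGER, ATDNA12T3A, ATHPOGON2 and RP1_AT, and no 2 neighbours in it overlapped between caa39 libraries. In the wild type it was ATIS112A, HARBINGER, ATHPOGON2, RP1_AT and ATDNA12T3A, where the lowest ATHPOGON2 and the highest RP1_AT value, both in library c, were equal at 17.0.

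The named families next above and next below each member in level went both ways. Next to HARBINGER in level, ATCOPIA41 had a fold of 0.657 and ATCOPIA93 of 0.211 by the authors' deposited table. Next to ATIS112A, ATREP10D had a fold of 0.699 and ATLANTYS3 of 1.72 by the authors' deposited table. Next to ATHPOGON2, ATDNAI27T9A had a fold of 5.37 and HELITRONY1B of 0.314 by the authors' deposited table. Both neighbours of ATDNA12T3A rose with it, ATHILA6B 26.3-fold and VANDAL21 6.73-fold by the authors' deposited table. Beside RP1_AT, which fell, ATENSPM7 and ATCOPIA51 rose 16.8-fold and 7.42-fold in the authors' deposited table.

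**Figure D4:**
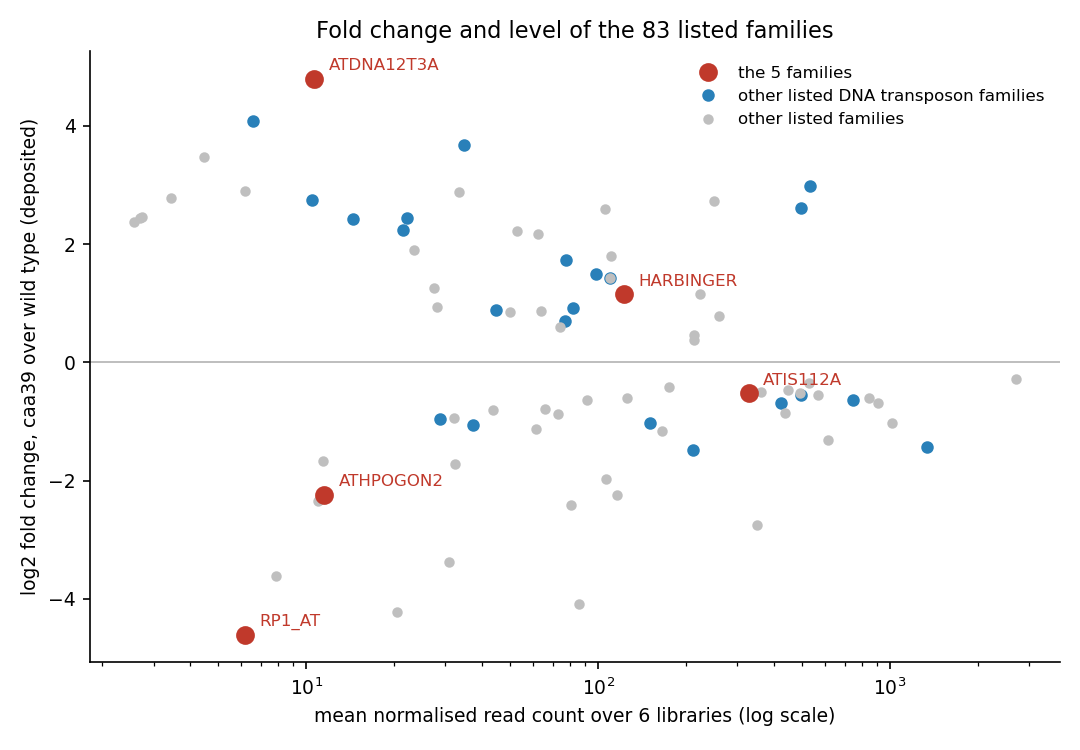
Deposited log2 fold change, caa39 over wild type (y axis), against mean normalised read count over 6 libraries (x axis, log scale) for the 83 named families; red, the 5 families; blue, the 22 other DNA transposon families; grey, the rest. ATDNA12T3A and RP1_AT mark the upper and lower ends of the plot, while ATIS112A lies near 0 at a high level; 4 grey families with no wild-type reads are drawn at their deposited values.

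The other DNA transposons of the table give the background. Of the 22 other listed DNA families 14 rose and 8 fell in caa39, with a median log2 fold change of 1.17 and a range of −1.48 to 4.07 in the authors' deposited table. Of these, 6 of 7 En-Spm, 7 of 11 MuDR and 1 of 4 hAT families rose. The 5 members had a median of −0.52 and a range of −4.60 to 4.80, and all 83 named families a median of −0.35, in the same authors' deposited table. At least 2-fold changes were listed for 4 of the 5 members, 15 of the 22 other DNA families and 51 of all 83 in the authors' deposited table. These shares describe a list chosen for significance, in which sparse families pass only with large folds, and no difference between the lists was tested.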

How the data were processed

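RNA of 3 caa39 and 3 wild-type libraries was prepared with a stranded mRNA kit, per the labels' protocols. Per the submitters' processing notes, edgeR 1.12.0, Bowtie2 and FastQC 0.10.1 were used with the TAIR10 build; their roles and the counting of multi-copy reads were not stated. Per the file headers, the deposited signal is a mean over each genotype of the authors' normalised read counts. The deposited ratio (fold) is the caa39 over the wild-type mean, within 1e-09 in all 84 entries, and its logarithm is the deposited log2 value. The authors' deposited p-value is raw and adjusted, at most 0.0499.

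Library reads were solved from the means, each a sum of 3 whole read numbers times library constants. With size factors of 0.48 to 1.67 searched, 1 set solved all 84 caa39 means and 1 set the 80 usable wild-type means; 4 families are deposited with a wild-type mean of 1 where the overall mean leaves 0. Size factors were 1.37, 1.21 and 0.914 in caa39 and 0.943, 0.868 and 0.823 in the wild type (geometric mean 1.00). A second search, wider but also bounded, found 5 more caa39 sets outside that range, the tightest with a geometric mean of 1.35, used as an alternative. Sets beyond that search were not looked for. Solver and limma were also run on simulated data, whose outcome is not given here. Those runs did not cover the choice between the sets of constants.

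The 83 named families were fitted with limma 3.58.1 in R 4.3.3, with Benjamini-Hochberg adjustment. The 1 unassigned entry, 28.3% of listed reads, stayed out of the fit but was part of the sum of listed reads. The named families had passed a test on the same libraries, so this fit is no independent evidence. Counting intervals and the floor of 3 reads cover counting error only, and they use the reads solved with the chosen constants. Python 3.11.15, scipy 1.17.1, numpy 2.4.6, pandas 2.3.3 and matplotlib 3.10.9 were used. Listed reads, 20791 to 31566 in caa39 and 22924 to 26678 in the wild type, are a part of each library, whose depth was not stated. Members, lists and tests were chosen with earlier results of these data known, and all 5 members are named.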

Additional observations from a re-analysis of the deposited data

How the results depend on the processing

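Of 69 alternative limma values for the 5 families 68 kept direction and call and 0 changed direction. ATIS112A lost its call when scaled to listed reads (log2 fold change −0.21, adjusted p = 0.136). All 83 named families had passed the authors' threshold on the same libraries, and limma with a pseudocount of 0.5 called 97.6% of them. The kept calls therefore say little about the members. With a library left out, log2 fold changes ran from 0.98 to 1.32 for HARBINGER, −0.59 to −0.47 for ATIS112A, −2.18 to −1.99 for ATHPOGON2, 3.66 to 4.52 for ATDNA12T3A and −4.54 to −3.55 for RP1_AT. RP1_AT, with a mean of 6.18, has no value at a minimum mean of 10, where 74 families were fitted. The other 4 members were called there. The share called of the 74 is not given here, so this count says nothing about the members. The count of 5 called families was 4 at an adjusted p below 0.01, without RP1_AT, and 4 at a 2-fold minimum, without ATIS112A. Of all 83 named families, 62 were listed with an adjusted p below 0.01 and 51 with a change of at least 2-fold. The log2 ratio of the summed level was −0.09; it was 0.21 scaled to listed reads, −0.51 without HARBINGER and 0.85 without ATIS112A, and −0.15 to −0.05 with a library left out. The ratio of the 2 Harbinger families, added after the data were seen, differed by 1.49 to 1.91 on the log2 scale with a library left out. A pseudocount of 5 brought ATDNA12T3A to 2.12 and RP1_AT to −1.59, and 0.1 to 5.24 and −5.49. With the chosen constants their low group rests on 2 reads each. No paired analysis was possible because the solved libraries carry no replicate numbers.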
